A study of Mus musculus with 11 samples.

Results

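Cartilage of operated knees was compared between 4 libraries labelled c-FosDCh and 3 labelled c-FosWT, which together are 7 of the 11 libraries of the series and were taken by the group their labels name. All mice were of the C57BL/6 strain and 14 weeks of age, and knees were taken 4 weeks after surgery that destabilizes the medial meniscus (DMM) and is used to model osteoarthritis in mice. Controls carried the wild-type label c-FosWT. The name c-FosDCh stands in this study for the loss of c-Fos in chondrocytes. The sources used here do not give the recombinase, its promoter or the part of the gene removed. Titles name a different animal for each of the 7 DMM libraries, although the source labels give the number 1 to both c-FosDCh replicates 1 and 2, so that their independence rests on the titles. The 3 c-FosWT DMM animals also gave a contralateral library, and the 4 contralateral c-FosWT libraries enter here for the estimate of the spread and of the slope on marrow content, with their values as background. Contralateral cartilage of c-FosDCh mice was not analysed here. The question was which gene differences between the genotypes in the operated joint were larger than, or ran against, the difference that the marrow content of the libraries predicts.

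c-Fos is a subunit of activator protein 1 (AP-1), a dimer of Fos and Jun family proteins that binds short DNA motifs and is induced within minutes by growth factors, cytokines and mechanical load. In joints AP-1 is known for driving matrix metalloproteinase genes, and c-Fos is also required for osteoclasts to form. Articular cartilage has no vessels and few cells, chondrocytes that make aggrecan and type II collagen under the transcription factor Sox9, while the cells of its surface make lubricin (Prg4) and its deepest cells, next to bone, make type X collagen. The marrow of the underlying bone is rich in red cell and neutrophil precursors, whose RNA enters a library when bone is cut with the cartilage.

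Gene counts of the 7 DMM libraries ranged from 13762898 to 18280558. Values are given as CPM (counts scaled to library size) in the order of replicates 1 to 3 for c-FosWT and 1 to 4 for c-FosDCh; since they are not divided by gene length, levels were not compared between genes. A marrow score was taken over 20 erythroid and 20 granulocyte genes as their mean log2 CPM. It was 7.66, 7.96 and 8.39 in the c-FosWT DMM libraries. In the c-FosDCh DMM libraries it was 7.02, 7.12, 5.69 and 3.71. Every c-FosDCh library thus scored below every c-FosWT DMM library, most of all replicate 4, and the means were 8.01 ± 0.37 (SD, n = 3) and 5.89 ± 1.59 (SD, n = 4). The erythroid genes alone also kept the groups apart. The granulocyte genes alone did not, at 8.22 in c-FosDCh replicate 1 against 7.84 to 8.63 in c-FosWT DMM libraries. The marrow score difference of -2.12 had a two-sided exact permutation p of 0.0857 over the 35 splits (0.205 adjusted over 6 scores). A cartilage score differed by 1.12 the other way, with an exact permutation p of 0.143, and ranged from 5.99 to 7.65 in c-FosWT and from 7.45 to 8.55 in c-FosDCh libraries. Skeletal muscle genes scored 7.21 in c-FosWT replicate 1 and 5.80 in c-FosDCh replicate 2, against 1.87 to 3.83 in the other 5 DMM libraries. No tested gene of the erythroid, granulocyte and muscle lists was at 0 CPM in any DMM library. The chondrocyte markers Acan, Col2a1 and Sox9 were present in all of them, at 474 to 9680, 2330 to 11700 and 21.6 to 393 CPM, while Matn3 and Matn1, described below, were under 1 CPM in several. In tissue RNA, fewer cells of a type and less RNA per cell cannot be told apart.

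**Figure D1:**
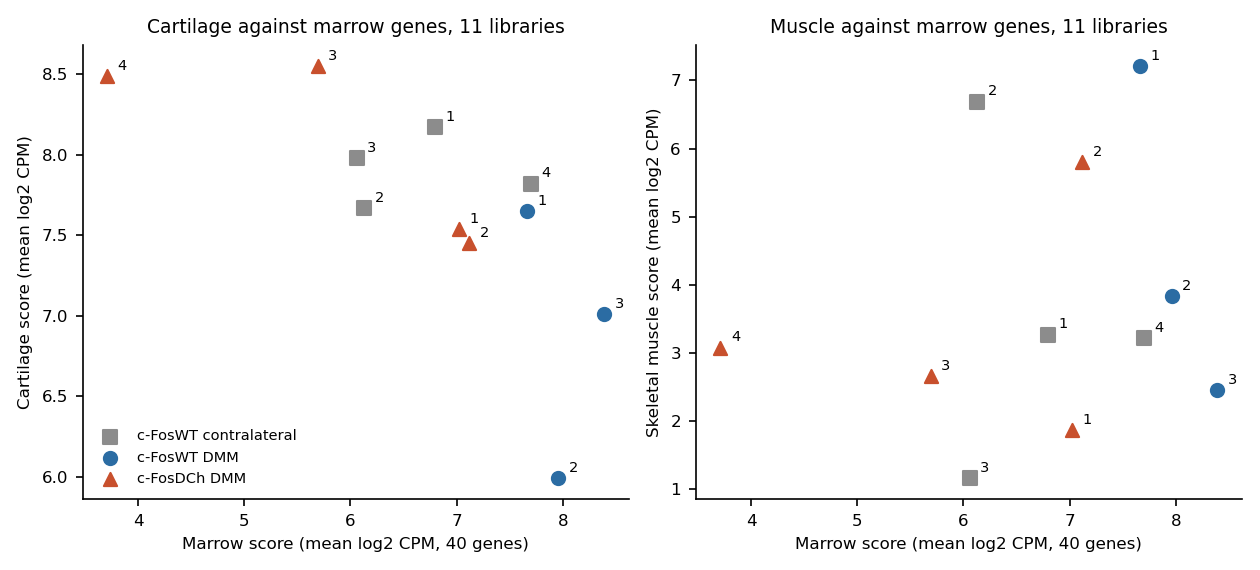
Mean log2 CPM of cartilage genes and of skeletal muscle genes against the marrow score of each of the 11 libraries, one point per library, with the groups in different colours and shapes. The c-FosDCh DMM libraries lie between marrow scores of 3.71 and 7.12, left of the c-FosWT DMM libraries at 7.66 to 8.39, and muscle scores above 5 occur in both DMM groups.

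Fos itself was counted first, as a check of the labels. It stood at 12.1, 14.1 and 9.01 CPM in the c-FosWT DMM libraries and at 19.4, 10.9, 29.5 and 33.0 CPM in the c-FosDCh DMM libraries, against 15.7 to 24.8 CPM in contralateral cartilage. Fos (chr12:85473890-85477273 of GRCm38, plus strand) was therefore not reduced under the c-FosDCh label, where 3 of the 4 values lay above all c-FosWT DMM values. The log2 difference was 0.98 ± 0.35 (SE, adjusted p = 0.0736 in edgeR's quasi-likelihood test). How much of it the marrow content predicts is given below with the AP-1 subunits. The deposited counts cover the whole gene and cells other than chondrocytes, so they do not check a deletion of part of it, and each direction below rests on the label.

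Across 18125 tested genes, 2616 (14.4%) passed an adjusted p of 0.05 between the DMM groups in edgeR's quasi-likelihood test, 1929 (10.6%) higher and 687 (3.79%) lower in c-FosDCh. Higher genes were 73.7% of the calls, but 54.5% with library totals as the scaling, which moved the median of all genes by -0.17. The values of the 2 groups did not overlap for 17.2% of genes on the higher and 15.8% on the lower side. Each gene was then given a predicted difference, its slope on the marrow score within groups times the score difference of -2.12. What remains of the group difference once the score is in the fit is called the excess; predicted difference and excess need not add up to the observed one. Of the called genes 97.3% had a prediction of the observed sign. The c-FosDCh libraries entered both the slope and the observed difference, and the share over all tested genes was not counted. Those called higher had a median observed difference of 1.13, a median prediction of 0.48 and a median excess of 0.58 on the log2 scale. For those called lower the medians were -0.92, -0.43 and -0.47. The excess was under 0.5 in size for 43.3% of the called genes and at least 1 for 17.9%.

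Genes were counted as larger than predicted when they were called and had an excess of at least 1 in the observed direction, with no prediction of 0.5 or more the other way. This held for 465 genes (2.57% of those tested), 380 higher (2.1%) and 85 lower (0.469%) in c-FosDCh. B4galnt3 and Lrig3, with an excess of 1.0013 and 1.0016, were the nearest inside the limit, and Card14 (-0.9996) lay just outside. Genes were counted as opposite to the prediction when the observed and the predicted difference had different signs and were each at least 0.5 in size. There were 229 such genes (1.26%), 108 higher and 121 lower in c-FosDCh, of which 3 were called.

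These counts depended on the model and on single libraries. With the marrow score in the edgeR fit, 0 genes passed an adjusted p of 0.05 (lowest adjusted p = 0.434), while 1772 (9.78%) had an unadjusted p under 0.05, 1335 of them (7.37%) higher and 437 (2.41%) lower. DESeq2 called 77 genes beyond the marrow score, 62 higher and 15 lower, of which 37 are among the 465, and limma-voom called 0. In that fit DESeq2 gave 14759 of the 18125 tested genes no adjusted p, so these could not be called. Without the score the lowest adjusted p was 0.0332, a value shared by many genes. Calls then fell to 0 when c-FosDCh replicate 3 or 4, c-FosWT DMM replicate 2 or 3, or contralateral replicate 1 was left out, and to 1 without contralateral replicate 2, while 4449 and 4626 passed without c-FosDCh replicates 1 and 2. The slope could be taken from the 7 c-FosWT libraries or from the 4 contralateral ones alone, and then 447 and 444 genes were larger than predicted, of which 271 and 253 were shared with the 465. An excess below is thus given with its SE and unadjusted p as a measured value, not as a call.

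**Figure D2:**
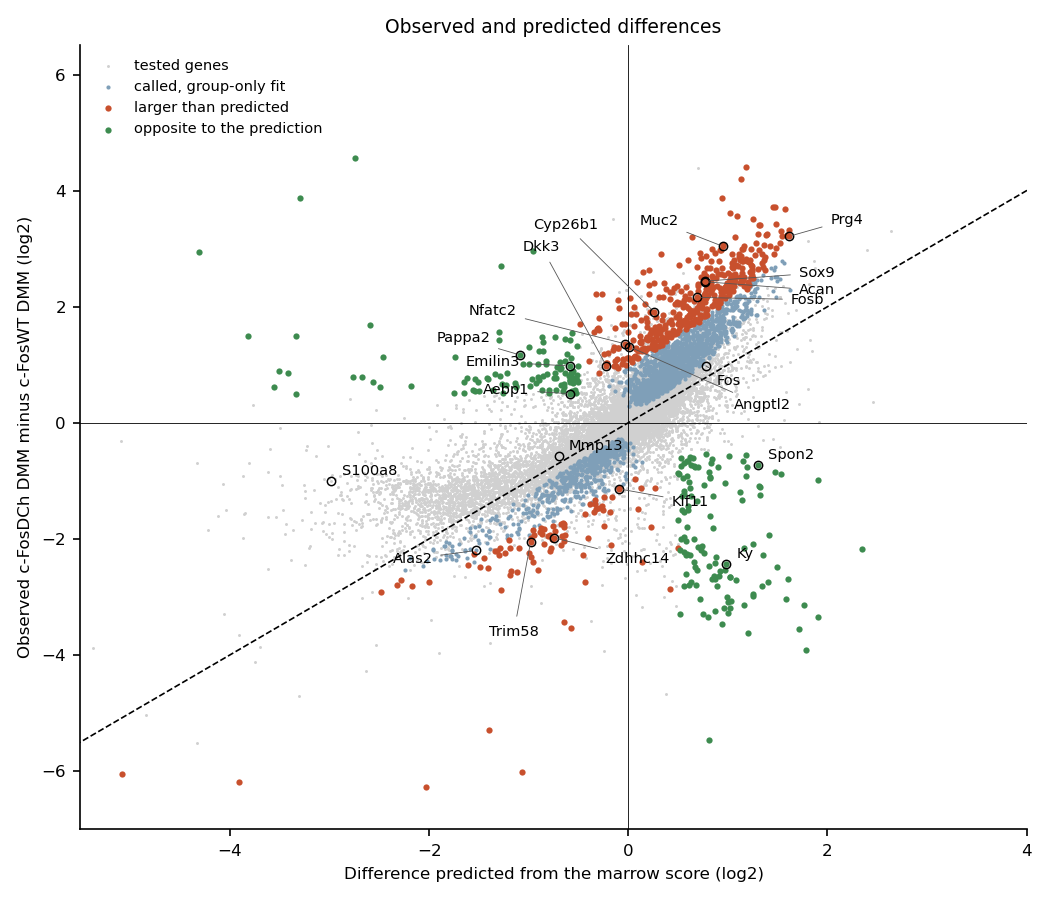
Observed log2 difference between c-FosDCh DMM and c-FosWT DMM libraries against the difference predicted from the marrow score, one point per gene, with 6 of the genes outside the axes. Called genes lie mostly in the 2 quadrants where both differences have the same sign. The 465 genes larger than predicted are called genes with an excess of at least 1. The 229 opposite genes lie in the other quadrants, with both differences at least 0.5 in size. The dashed line marks observed equal to predicted.

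The genes above the prediction are described by 10 of them, Cyp26b1, Muc2, Layn, Dkk3, Angptl2, Muc1, Nfatc2, Upp2, Eno2 and Slc7a2. They were the 10 with the smallest unadjusted p for the excess among genes larger than predicted, higher and without overlap between the groups. Their p-values and the separation of their groups thus describe them and test nothing further. All 10 were called in the group-only fit at an adjusted p of 0.0332. Cyp26b1 (chr6:84571414-84593908, minus strand), which breaks down retinoic acid, was counted at 20.9, 12.9 and 22.9 CPM in c-FosWT and at 69.9, 65.1, 72.1 and 75.9 CPM in c-FosDCh libraries. The 4 c-FosDCh values lie close together although their marrow scores span 3.71 to 7.12, and the contralateral values of 31.4 to 60.3 CPM fall between the DMM groups. It rose by 1.91 ± 0.24 on the log2 scale, with 0.26 predicted and an excess of 1.65 ± 0.28 (unadjusted p = 0.000127). With the contralateral slope the excess was 0.81.

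Angptl2 (chr2:33216069-33247717, plus strand), a secreted angiopoietin-like protein, stood at 169, 80.3 and 130 CPM in c-FosWT and at 294, 325, 320 and 317 CPM in c-FosDCh libraries. Its rise of 1.31 ± 0.21 had almost no predicted share (0.01), and the excess was 1.30 ± 0.26. Nfatc2 (chr2:168476410-168601657, minus strand), a transcription factor switched on by calcium, was at 51.9, 26.8 and 42.1 CPM in c-FosWT and at 126, 96.8, 96.8 and 95.2 CPM in c-FosDCh libraries. Its excess was 1.39 ± 0.28 against a prediction of -0.03. For Dkk3 (chr7:112116017-112159057, minus strand), a secreted protein of the Dickkopf family, the values were 73.2, 42.3 and 61.2 CPM against 138, 125, 106 and 96.7 CPM. Its prediction had the other sign (-0.22), and the excess of 1.19 ± 0.23 was above the observed rise of 0.98 ± 0.20.

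Both mucin genes of this group were scarce in c-FosWT cartilage. Muc2 (chr7:141690340-141754693, plus strand), a secreted gel-forming mucin, was at 2.34, 1.49 and 3.17 CPM in c-FosWT and at 9.86, 11, 22.9 and 33.3 CPM in c-FosDCh libraries. It rose by 3.04 ± 0.47, of which 0.95 was predicted, with an excess of 1.90 ± 0.34. The membrane mucin Muc1 (chr3:89229057-89233381, plus strand) was at 2.34, 1.89 and 2.73 CPM against 5.55, 9.42, 12.6 and 11 CPM, with an excess of 1.87 ± 0.37. All c-FosDCh values of both genes lay above all c-FosWT values, which the choice of genes required. Layn, a membrane receptor for hyaluronan, was at 5.90 to 10.5 CPM against 21.2 to 41.6 CPM, with an excess of 1.31 ± 0.25. Eno2, an enolase, Slc7a2, a carrier of basic amino acids, and Upp2, a uridine phosphorylase, had an excess of 1.09 ± 0.23, 1.13 ± 0.24 and 1.26 ± 0.26. Among these 10 genes the excess stayed above 0 under each alternative tried.

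**Figure D3:**
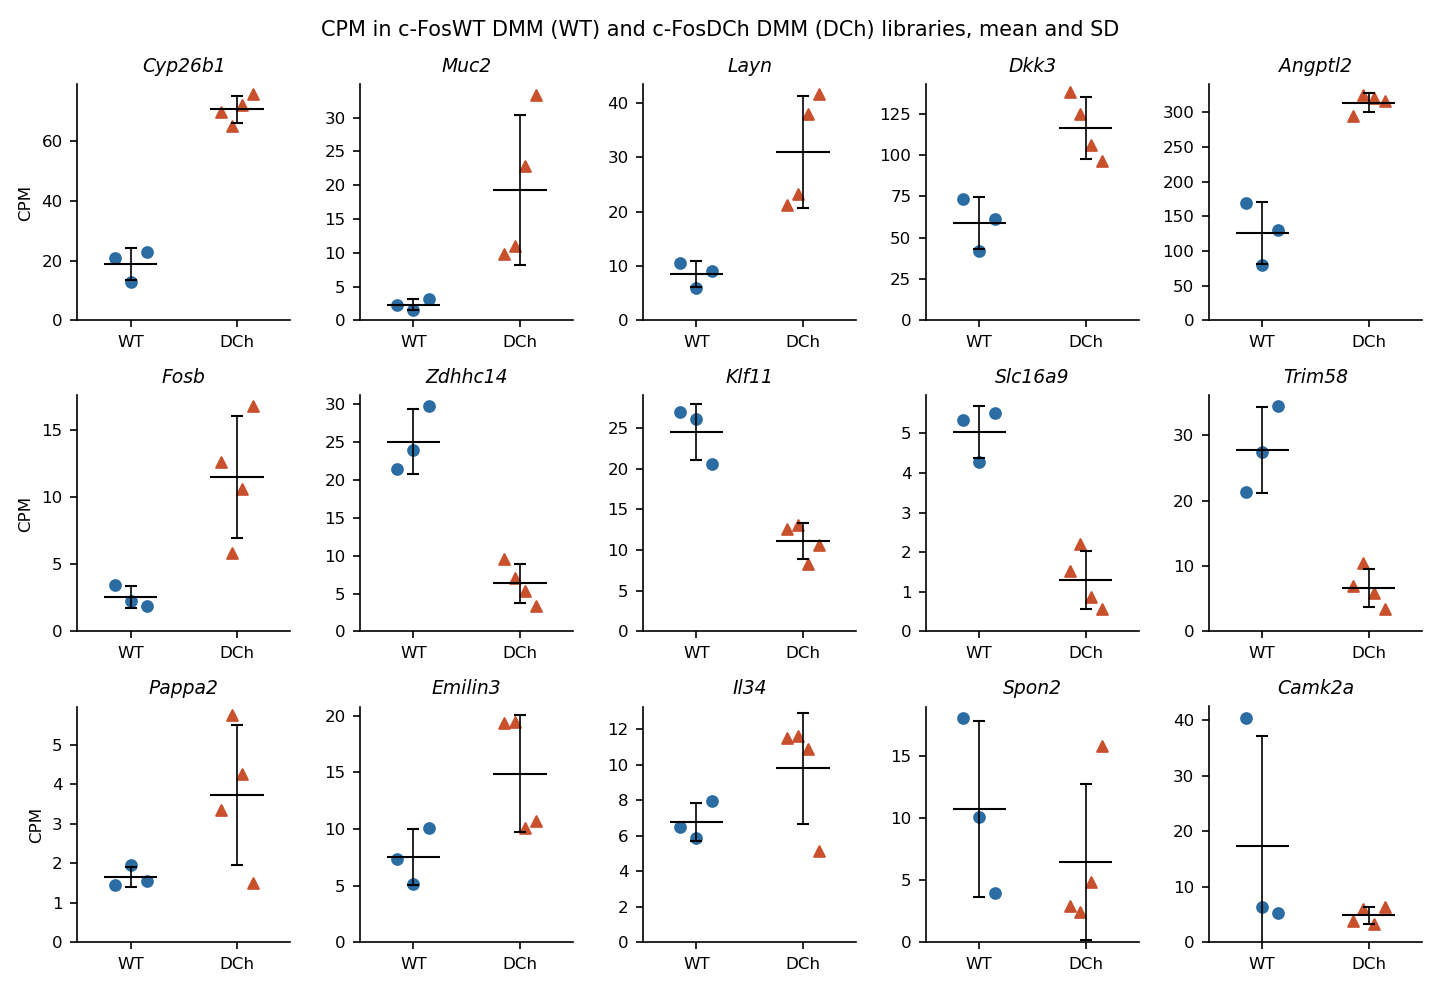
CPM of 15 genes in the 3 c-FosWT DMM (circles) and 4 c-FosDCh DMM (triangles) libraries, with the mean as a line and the SD as bars. The first 6 panels show genes above the prediction, with Cyp26b1 at 12.9 to 22.9 against 65.1 to 75.9 CPM, the next 4 show genes below it, and the last 5 show genes opposite to it, where Pappa2, Il34, Spon2 and Camk2a overlap between the groups.

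Many cartilage genes were higher in c-FosDCh, part of them by more than the marrow score predicts. Of 32 genes for cartilage matrix and chondrocyte factors, 18 were called higher and 0 lower, and 11 were larger than predicted. Of all tested genes 10.6% were called higher, 3.79% were called lower and 2.57% were larger than predicted. The groups did not overlap for 17.2% of them on the higher and 15.8% on the lower side. These shares are the background for each list and gene below. The median difference of the list was 1.61, its median prediction 0.68 and its median excess 0.87, beside -0.01, 0.00 and 0.03 over all tested genes. The median excess was 0.5 without c-FosWT DMM replicate 2 and 0.51 with the erythroid genes alone as the score. A score of cartilage genes ran opposite to the marrow score across these libraries, and its part in single genes was not tested apart from the marrow score. With the cartilage score in place of the marrow score, 0 genes were called.

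Sox9 (chr11:112782224-112787760, plus strand), the transcription factor that specifies chondrocytes, was at 76.4, 21.6 and 53.6 CPM in c-FosWT and at 186, 141, 393 and 381 CPM in c-FosDCh libraries. Contralateral cartilage held 120 to 171 CPM, so that c-FosDCh replicates 1 and 2 were near that range and replicates 3 and 4 above it. Sox9 rose by 2.44 ± 0.48 (adjusted p = 0.0332), with 0.77 predicted and an excess of 1.60 ± 0.50 (unadjusted p = 0.01). Acan (chr7:79053483-79115099, plus strand), the aggrecan gene, was at 1770, 474 and 1410 CPM against 3630, 3880, 9680 and 9090 CPM. It rose by 2.43 ± 0.53 with an excess of 1.57 ± 0.55. The 2 groups did not overlap for either gene, and replicate 2 was the lowest c-FosWT library for both.

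Other matrix genes had a similar excess. Chad (chondroadherin), Comp (cartilage oligomeric matrix protein) and Cytl1 (a chondrocyte cytokine-like protein), named after their values were seen, rose by 2.6 ± 0.66, 1.75 ± 0.46 and 3.30 ± 0.81. Their excess was 1.28 ± 0.62, 1.06 ± 0.51 and 1.47 ± 0.69. Wwp2, a ubiquitin ligase that hosts a cartilage microRNA, was at 242 to 412 CPM against 687 to 1410 CPM, with an excess of 0.90 ± 0.32. Sox5, a partner of Sox9, rose by 1.76 ± 0.40 with an excess of 0.75 ± 0.29.

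The type II collagen gene did not follow. Col2a1 (chr15:97975602-98004695, minus strand) was at 6280, 2330 and 6350 CPM in c-FosWT and at 6080, 5290, 10700 and 11700 CPM in c-FosDCh libraries, which overlap. Its difference of 0.76 ± 0.47 (adjusted p = 0.239) had an excess of 0.22 ± 0.59. The genes for type IX and XI collagen were likewise not called. Matn3, Matn1 and Col9a1, also named after their values were seen, had lower means in c-FosDCh. Matn3 was at 95.1, 21.5 and 22.7 CPM in c-FosWT and at 0.073, 4.07, 0.751 and 0.477 CPM in c-FosDCh libraries, a difference of -5.04 ± 1.67 (adjusted p = 0.0628) with a prediction of -4.84. Its groups were apart, and 3 of the 4 c-FosDCh libraries held under 1 CPM. Matn1 reached 5.86 CPM in c-FosWT replicate 1 and 0.0573 to 0.501 CPM in the other 6 DMM libraries, and Col9a1 reached 170 CPM in that same library against 17.9 to 68.3 CPM in the others. Without c-FosWT replicate 1 the excess of Matn3, Matn1 and Col9a1 was 0.30, 0.47 and 0.27, in place of -2.30, -3.03 and -0.84.

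At the cartilage surface the lubricin gene showed one of the widest ranges. Prg4 (chr1:150449412-150466165, minus strand) was at 2840, 989 and 2150 CPM in c-FosWT and at 7600, 5200, 22500 and 38700 CPM in c-FosDCh libraries. It was highest in the 2 libraries with the lowest marrow scores, and its rise of 3.21 ± 0.76 (adjusted p = 0.0336) was predicted to 1.61, with an excess of 1.22 ± 0.51 (unadjusted p = 0.0360). Of 15 superficial zone genes 8 were called higher and 1 lower, and 5 were larger than predicted (medians 1.33 observed, 0.45 predicted and 0.74 in excess). That excess was 0.31 with the slope from the c-FosWT libraries and 0.49 without c-FosWT DMM replicate 2 or without c-FosDCh replicate 4. Cilp and Clu, secreted proteins of this zone, had an excess of 1.31 ± 0.58 and 1.35 ± 0.51. Htra1, a secreted serine protease, was at 167, 94.5 and 132 CPM against 286, 299, 466 and 511 CPM, with an excess of 1.09 ± 0.23 (unadjusted p = 0.000730). Erg, a transcription factor of articular chondrocytes that is also expressed in endothelium, rose by 1.33 ± 0.26 while 15 of the 16 endothelial markers had lower values in c-FosDCh.

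Some genes of hypertrophic and mineralizing cartilage were higher as well. Of 19 genes 6 were called higher and 0 lower, with a median difference of 0.84, a median prediction of 0.10 and a median excess of 0.63, which was 0.13 and 0.34 with the c-FosWT and the contralateral slope, 0.36 without c-FosWT DMM replicate 2 and 0.37 without c-FosDCh replicate 4. Col10a1 (chr10:34389981-34397085, plus strand), the type X collagen gene, was at 1130, 169 and 828 CPM in c-FosWT and at 2150, 2770, 5850 and 7290 CPM in c-FosDCh libraries. It rose by 2.67 ± 0.65 (adjusted p = 0.0349) with an excess of 1.72 ± 0.71. Enpp1 and Ank, which supply the mineralization inhibitor pyrophosphate outside the cell, rose by 1.97 ± 0.37 and 1.45 ± 0.28 with an excess of 1.24 ± 0.35 and 0.82 ± 0.23. Alpl, the alkaline phosphatase that removes pyrophosphate, rose by 1.24 ± 0.36, of which 0.10 was predicted. Spp1 (osteopontin) was at 1310, 1210 and 1210 CPM against 1830, 2700, 2420 and 1490 CPM, groups apart but not called (adjusted p = 0.0606), with an excess of 0.97 ± 0.29.

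**Figure D4:**
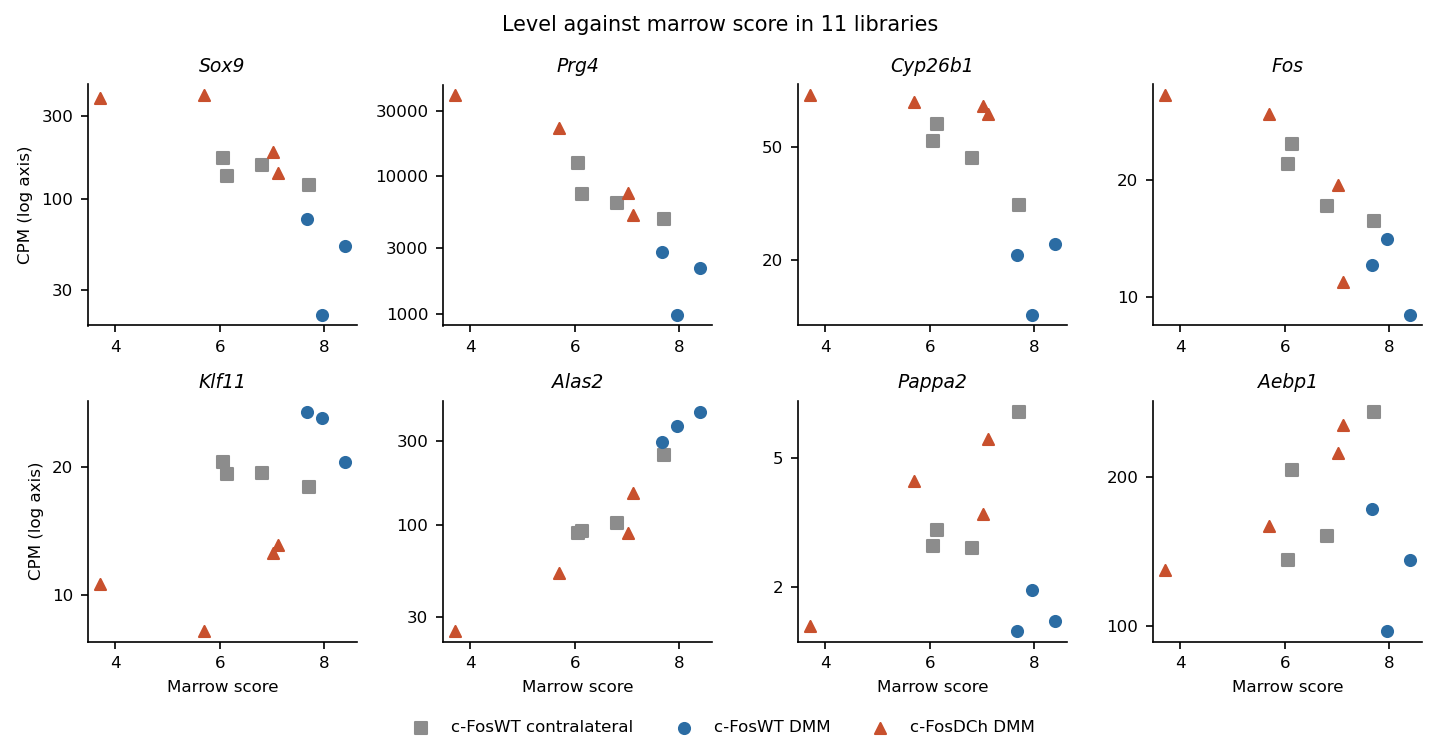
CPM on a log axis against the marrow score for 8 genes in the 11 libraries, one point per library. Cyp26b1 and Klf11 hold c-FosDCh DMM values of 65.1 to 75.9 and 8.26 to 13.1 CPM over the whole range of scores, Prg4 and Fos are highest at the lowest scores, and Alas2 is lowest there.

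Growth factor signalling genes were called on the higher side. In the list of TGF-beta and BMP signalling, growth factor pathways that maintain cartilage, 18 of 40 genes were called higher and 0 lower, with medians of 1.12 observed, 0.52 predicted and 0.47 in excess (0.26 without c-FosWT DMM replicate 2). The target gene Id1, a transcriptional inhibitor induced by BMP, was at 26.3, 18 and 35.9 CPM against 63.7, 61.3, 86.9 and 49.1 CPM, and its prediction of -0.10 had the other sign from its rise of 1.29 ± 0.26. Its 2 groups of values were apart. Among ligands, all named after their values were seen, Gdf6, Gdf5, Gdf10 and Bmp2 rose by 3.09 ± 0.71, 2.42 ± 0.68, 1.03 ± 0.30 and 2.05 ± 0.46. Gdf6 reached 75.5 CPM in c-FosDCh replicate 4 against 14.0 to 19.4 CPM in the other 3 and 1.89 to 4.67 CPM in c-FosWT libraries. The receptor gene Acvr1 rose by 1.26 ± 0.25 with an excess of 0.60 ± 0.15.

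Of 40 Wnt pathway genes 10 were called higher and 0 lower; the median difference was 0.59, with a median prediction of -0.12 and a median excess of 0.52. With the c-FosWT and the contralateral slope the median excess was 0.13 and 0.17. Wnt16 (chr6:22288227-22298522, plus strand), a ligand made at the joint surface, was at 6.03, 3.26 and 3.34 CPM in c-FosWT and at 14.2, 18.2, 16.3 and 6.04 CPM in c-FosDCh libraries. Replicate 4 of c-FosDCh was level with the highest c-FosWT library, and the other 3 were well above it. The rise of 1.70 ± 0.41 (adjusted p = 0.0344) had a prediction of -0.48 and an excess of 2.10 ± 0.47 (unadjusted p = 0.00114). The receptor gene Fzd9 rose by 2.27 ± 0.52 with an excess of 1.53 ± 0.63. Sost and Dkk1, secreted Wnt inhibitors, overlapped between the groups, with 9.37 and 5 CPM in c-FosDCh replicate 4 against 97.0 to 176 and 29.4 to 55.6 CPM in the other 3.

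Genes of fibroblast growth factor signalling were called among ligands, receptors and targets. Of 18 tested genes 11 were called higher and 0 lower (medians 1.05 observed, 0.36 predicted, 0.67 in excess). The median excess was 0.2 and 0.25 with the c-FosWT and the contralateral slope, 0.4 without c-FosWT DMM replicate 2 and 0.34 without c-FosDCh replicate 4. Fgf18, a ligand that stimulates cartilage matrix synthesis, was at 1.82, 1.03 and 0.89 CPM in c-FosWT and at 4.82, 4.13, 4.75 and 9.37 CPM in c-FosDCh libraries, with an excess of 1.35 ± 0.32. The ligand gene Fgf2 rose by 2.89 ± 0.59 and its receptor gene Fgfr1 by 1.11 ± 0.24. Etv4, a transcription factor gene switched on by the pathway, was at 1.23, 0.859 and 1.22 CPM against 4.67, 2.56, 6.69 and 4.53 CPM, with an excess of 1.58 ± 0.45. Spry4, an inhibitor in the same pathway, rose by 1.12 ± 0.23 with 0.17 predicted. For each of these 5 genes all c-FosDCh values were above all c-FosWT values, which held for 17.2% of all tested genes. Fgf2, Fgfr1 and Spry4 were chosen after their values were seen. In the hedgehog list 6 of 14 tested genes were called higher and 0 lower, among them the co-receptor gene Cdon (excess 0.71 ± 0.28). Ihh, the ligand gene, was opposite to the prediction (1.02 ± 0.61 observed, -1.06 predicted), at 23.9, 17.7 and 28.9 CPM in c-FosDCh replicates 1 to 3 and at 2.78 CPM in replicate 4 against 4.41 to 13.5 CPM in c-FosWT libraries.

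Genes for the turnover of retinoic acid, a vitamin A derivative that restrains chondrocytes, moved in both directions. Of 16 tested genes 7 were called higher and 2 lower. Cyp26b1, which degrades it, rose as given above, and Rarb, a receptor gene that retinoic acid itself induces, was at 3.46, 2.18 and 3.00 CPM in c-FosWT and at 7.88, 7.32, 9.51 and 7.86 CPM in c-FosDCh libraries. Rarb rose by 1.5 ± 0.30 with an excess of 1.22 ± 0.36. The receptor gene Rarg rose by 1.00 ± 0.21. Aldh1a2 and Aldh1a1, which synthesize retinoic acid, fell: Aldh1a2 was at 3.75, 6.36 and 2.95 CPM against 0.584, 0.988, 2.13 and 0.238 CPM. It fell by 2.11 on the log2 scale (SE 0.54, adjusted p = 0.0367), with -0.17 predicted and an excess of -1.94 ± 0.77 (unadjusted p = 0.0296). Aldh1a1 was at 27.3, 32.0 and 39.4 CPM against 10.9, 17.7, 9.57 and 7.70 CPM, with an excess of -0.99 ± 0.33. Crabp2 and Stra6, the binding protein and uptake receptor genes, overlapped between the groups.

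Fos itself, with a difference of 0.98 ± 0.35, had a prediction of 0.78 and an excess of 0.14 ± 0.29 (unadjusted p = 0.642). Among the other AP-1 subunits its closest relative stood out. Fosb (chr7:19302696-19310051, minus strand) was at 3.46, 2.29 and 1.89 CPM in c-FosWT and at 12.6, 5.87, 10.6 and 16.8 CPM in c-FosDCh libraries, against 3.94 to 7.78 CPM in contralateral cartilage. It rose by 2.16 ± 0.38 (adjusted p = 0.0332), with 0.69 predicted and an excess of 1.45 ± 0.34 (unadjusted p = 0.00141). Of the 17 genes of AP-1 subunits and partners 2 were called, Fosb and Junb, both higher, a count near the 10.6% of all tested genes called higher. Junb was at 43.3, 41.1 and 50.7 CPM against 77.2, 54.2, 76.4 and 118 CPM, and its rise of 0.86 ± 0.23 left an excess of 0.31 ± 0.18. Jun and Jund were apart between the groups but not called (adjusted p = 0.0667 and 0.0512), and most of their differences was predicted. Fosl2 differed by 0.15 ± 0.16 and Fosl1 by 1.47 ± 0.62 (adjusted p = 0.476 and 0.109). Mafk, a small Maf partner, had a prediction of 0.31 but an observed difference of -0.41 ± 0.17 (adjusted p = 0.108).

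Early response genes outside AP-1 were called in 12 of 32 cases, 11 higher and 1 lower, with a median excess of 0.06 (-0.11 without c-FosDCh replicate 1). Maff was at 6.56, 3.15 and 6.67 CPM in c-FosWT and at 16.0, 14.8, 28.7 and 58.1 CPM in c-FosDCh libraries, with an excess of 1.05 ± 0.30. Socs3, a feedback inhibitor of cytokine signalling, rose by 0.59 ± 0.12, none of it predicted (-0.03). Ier3 rose by 1.36 ± 0.26 with an excess of 0.88 ± 0.25.

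Matrix proteases, the targets for which AP-1 is best known in joints, showed no common direction. Of 31 tested protease and inhibitor genes 6 were called higher and 0 lower, 15 had higher and 16 lower values in c-FosDCh, and the median difference was -0.10. Mmp13 (chr9:7272514-7283331, plus strand), the main collagenase of osteoarthritic cartilage, was at 600, 414 and 301 CPM in c-FosWT and at 207, 562, 239 and 164 CPM in c-FosDCh libraries. Replicate 2 of c-FosDCh lay among the c-FosWT values and the other 3 lay below them. The difference of -0.58 ± 0.44 (adjusted p = 0.324) was predicted at -0.70, with an excess of 0.00 ± 0.48, and contralateral values of 205 to 461 CPM overlapped both groups. Mmp3 (stromelysin) was at 27.2, 16.4 and 13.2 CPM against 22.3, 34.7, 27.8 and 48.1 CPM, a difference of 0.81 ± 0.59 (adjusted p = 0.309). Adamts5, the main aggrecanase in mouse cartilage, differed by 0.03 ± 0.25 (adjusted p = 0.929). Its prediction was 0.50 and its excess -0.47 ± 0.24 (unadjusted p = 0.073), from -1.12 to -0.30 over the alternatives. The 6 called genes were Htra1, Htra3 and Plat, serine proteases, and Timp2, Timp3 and Serpina3n, inhibitors. Timp3 and Timp2 rose by 2.15 ± 0.49 and 0.58 ± 0.16, and Serpina3n by 2.97 ± 0.60 with an excess of 1.91 ± 0.62.

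The promoters of Mmp13 and Mmp3 hold the AP-1 motif. Both strands of RefSeq promoters (GRCm38.p6, from 250 bases before to 50 bases after each start) were searched for TGANTCA, a looser form that allows any base at N. It was in 7.81% of all 32851 promoters and in 5.58% of the 15210 promoters of tested genes. It was in 5.53% of those called higher, 5.69% of those called lower, 7.1% of those larger than predicted and higher, 3.03% of those larger and lower, and 7.53% of those opposite. Of 160 genes followed by name, 119 had an entry and 7 held it: Mmp13, Mmp3, Muc2, Gldn, Aldh1a1, Rsad2 and Tnfaip3. The 250 bases before the start are shown for both proteases, whose excess was near 0 or had a wide error, and for Muc2 and Gldn, which had a large excess. The match is in capitals, with C at N in Mmp13 and Gldn, G in Mmp3 and A in Muc2.
Mmp13: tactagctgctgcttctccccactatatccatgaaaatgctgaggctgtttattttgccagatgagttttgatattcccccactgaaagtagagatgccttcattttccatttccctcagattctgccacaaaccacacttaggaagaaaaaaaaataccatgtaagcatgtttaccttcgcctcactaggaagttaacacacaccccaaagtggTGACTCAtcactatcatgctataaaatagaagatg
Mmp3: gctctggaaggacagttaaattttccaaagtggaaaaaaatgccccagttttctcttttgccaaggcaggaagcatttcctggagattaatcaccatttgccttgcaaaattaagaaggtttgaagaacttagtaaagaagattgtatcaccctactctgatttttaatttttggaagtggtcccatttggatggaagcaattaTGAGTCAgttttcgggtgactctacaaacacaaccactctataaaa
Muc2: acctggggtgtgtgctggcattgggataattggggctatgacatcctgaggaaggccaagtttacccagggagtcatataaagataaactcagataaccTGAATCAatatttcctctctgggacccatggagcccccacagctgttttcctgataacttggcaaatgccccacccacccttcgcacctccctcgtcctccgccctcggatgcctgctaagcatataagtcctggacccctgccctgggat
Gldn: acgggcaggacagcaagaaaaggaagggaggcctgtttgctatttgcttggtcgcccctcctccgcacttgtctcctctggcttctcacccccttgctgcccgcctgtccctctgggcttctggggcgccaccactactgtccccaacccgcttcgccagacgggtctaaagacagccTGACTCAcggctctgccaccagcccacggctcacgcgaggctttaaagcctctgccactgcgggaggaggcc
These are chr9:7272264-7272513, chr9:7445572-7445821, chr7:141690090-141690339 and chr9:54286236-54286485, all on the plus strand, and the match lies 35, 46, 151 and 72 bases before the start site. The excess was 0.00 ± 0.48 for Mmp13, 0.90 ± 0.85 for Mmp3, 1.90 ± 0.34 for Muc2 and 2.12 ± 0.45 for Gldn. A match is a description of the letters, not a bound site.

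Genes of energy metabolism differed by pathway. In the hypoxia list, genes that cells switch on at low oxygen, 17 of 26 tested genes were called higher and 0 lower, with medians of 1.30 observed, 0.64 predicted and 0.57 in excess (0.36 without c-FosWT DMM replicate 2). Vegfa, an angiogenic factor, was at 79.8, 51.9 and 65.5 CPM in c-FosWT and at 143, 113, 193 and 269 CPM in c-FosDCh libraries, with an excess of 0.64 ± 0.18. P4ha2, Ankrd37 and Ddit4 rose by 2.46 ± 0.53, 2.08 ± 0.47 and 1.53 ± 0.31, each with an excess over 1. Slc2a1, the glucose transporter gene, was at 45.7, 22.4 and 39.3 CPM against 102, 78.8, 215 and 379 CPM. Its highest values were in the 2 libraries with the lowest marrow scores, and the rise of 2.44 ± 0.53 was predicted at 1.23.

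Of 23 genes for glucose uptake, glycolysis and lactate 6 were called higher and 1 lower, and the median excess was 0.13 (-0.04 without c-FosWT DMM replicate 2). Ldha, which makes lactate from pyruvate, was at 372, 206 and 265 CPM in c-FosWT and at 401, 308, 540 and 672 CPM in c-FosDCh libraries. The groups overlapped, the difference of 0.77 ± 0.28 was not called (adjusted p = 0.0792), and 0.60 of it was predicted. Pdk1, the kinase that keeps pyruvate out of mitochondria, was at 64.4, 45.8 and 50.2 CPM against 70.9, 84.0, 156 and 193 CPM. Its rise of 1.24 ± 0.33 (adjusted p = 0.0401) left an excess of 0.33 ± 0.21 (unadjusted p = 0.146). Pdk1 was the only called gene among 14 genes of the pyruvate dehydrogenase complex and pyruvate carriers, where 14.4% of all tested genes were called.

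Some genes of the mitochondrial TCA cycle were lower by small amounts. Of 18 genes 0 were called higher and 6 lower, 17 had a lower value in c-FosDCh, and the median difference was -0.35 with a median prediction of -0.08 and a median excess of -0.25. Mdh2, malate dehydrogenase, was at 103, 93.3 and 104 CPM in c-FosWT and at 72.6, 82.9, 57.8 and 55.8 CPM in c-FosDCh libraries, and fell by 0.57 (SE 0.15, adjusted p = 0.0364). Idh3a, an isocitrate dehydrogenase subunit, was at 61.7, 40 and 37.5 CPM against 32.2, 29.9, 29.1 and 29.0 CPM. Its 4 c-FosDCh values lay within 4 CPM of each other and below all c-FosWT values, the difference of -0.63 ± 0.19 was not called (adjusted p = 0.0519), and 0.04 was predicted. Skeletal muscle is rich in these enzymes, and c-FosWT replicate 1, the library highest in muscle genes, also held the highest Idh3a value of the DMM libraries. Without that library 1 gene of the list was called lower, where 2122 genes were called in all, and the median excess was -0.18. Without both muscle-rich libraries the median excess was -0.16. There 0 of all tested genes were called, so the count of 0 for this list says nothing about it.

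Antioxidant genes were divided, with 4 of 24 called higher and 5 lower. Sod3, the secreted superoxide dismutase of cartilage matrix, was at 152, 64.1 and 125 CPM in c-FosWT and at 444, 291, 712 and 1060 CPM in c-FosDCh libraries, with an excess of 1.30 ± 0.36. Gpx3, a secreted peroxidase, rose by 1.05 ± 0.22 with an excess of 0.84 ± 0.25. Cat (catalase), abundant in red cells, fell by 1.05 (SE 0.20) with an excess of -0.62 ± 0.16.

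Of 19 circadian genes 10 were called higher and 0 lower, 6 were larger than predicted, and the medians were 1.06 observed, 0.27 predicted and 0.81 in excess. With the contralateral slope the median excess was 0.38. Per2 (chr1:91415982-91459324, minus strand), a repressor of the clock, was at 29.4, 22.6 and 47.1 CPM in c-FosWT and at 116, 91.1, 129 and 55.1 CPM in c-FosDCh libraries. Its rise of 1.57 ± 0.40 (adjusted p = 0.0378) had a prediction of -0.34, and the excess was 1.89 ± 0.53 (unadjusted p = 0.00549). Per1, Per3 and Tef, named after their values were seen, rose by 1.44 ± 0.29, 1.07 ± 0.31 and 0.99 ± 0.23, with an excess of 1.18 ± 0.37, 1.2 ± 0.40 and 1.01 ± 0.30. Arntl, the activator whose rhythm runs opposite to the Per genes, was at 20.3, 22.4 and 8.4 CPM against 7.59, 11, 15.9 and 22.3 CPM, which overlap, with an excess of -1.11 ± 0.49 (unadjusted p = 0.0462). The sources used here do not give the hour at which knees were taken.

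Inflammatory genes showed no common direction. Of 26 tested cytokine and NF-kB genes 5 were called higher and 2 lower, 10 had higher and 16 lower values in c-FosDCh, and the median excess was 0.07 (-0.17 without c-FosDCh replicate 1). Ptgs2 (cyclooxygenase-2, which makes prostaglandins) was at 4.57, 1.2 and 1.84 CPM in c-FosWT and at 4.16, 14.2, 20.3 and 6.35 CPM in c-FosDCh libraries. It rose by 2.15 ± 0.59 (adjusted p = 0.0413), although c-FosDCh replicate 1 fell below the highest c-FosWT library, and 0.02 was predicted. Ptges, the enzyme that follows it, was at 9.49, 6.76 and 9.62 CPM against 13.9, 16.2, 21.5 and 15.1 CPM, with an excess of 0.93 ± 0.24. Tnfaip3, an inhibitor of NF-kB, fell by 0.40 (SE 0.11, adjusted p = 0.0401), with -0.04 predicted.

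Genes below the prediction were fewer and of mixed function. The 10 with the smallest unadjusted p for the excess, chosen as their counterparts above, included Klf11, Zdhhc14, Slc16a9 and several genes known from red cell precursors. Klf11 (chr12:24651274-24662789, plus strand), a zinc finger transcription factor induced by TGF-beta, was at 27.0, 26.1 and 20.6 CPM in c-FosWT and at 12.6, 13.1, 8.26 and 10.6 CPM in c-FosDCh libraries. All c-FosDCh values lay below all c-FosWT values, which the choice of genes required, with contralateral values of 18 to 20.5 CPM in between. It fell by 1.14 (SE 0.16, adjusted p = 0.0332), with -0.09 predicted and an excess of -1.05 ± 0.21 (unadjusted p = 0.000511). Zdhhc14 (chr17:5492557-5753811, plus strand), an enzyme that attaches palmitate to proteins, was at 21.4, 23.9 and 29.8 CPM against 9.56, 7.03, 5.38 and 3.34 CPM, with an excess of -1.31 ± 0.23. Its lowest values were in the 2 libraries with the lowest marrow scores, and -0.75 was predicted. Tgm1, Mapk4 and Txk, each below 5 CPM, had an excess of -1.17 ± 0.31, -1.06 ± 0.38 and -1.17 ± 0.45. The transporter genes Slc16a9 and Atp1b2 had an excess of -1.15 ± 0.35 and -1.40 ± 0.44, and Atp1b2 was highest, at 30 CPM, in the muscle-rich c-FosWT replicate 1 against 11.6 and 12.7 CPM in the other 2.

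Trim58, Tmod1 and Tmcc2, which are known from the late steps of red cell formation, were below the prediction as well. Trim58 was at 21.3, 27.4 and 34.5 CPM in c-FosWT and at 7.01, 10.4, 5.82 and 3.42 CPM in c-FosDCh libraries, with an excess of -1.16 ± 0.40. The 20 tested erythroid markers had a median excess of -0.66, for example Alas2, the first enzyme of red cell haem synthesis, with -0.92 ± 0.24. The 20 granulocyte markers had a median excess of 0.89, for example S100a8 with 1.07 ± 0.30. The erythroid median turned to 0.14 and 0.32 with the c-FosWT and the contralateral slope and was -0.05 with the erythroid genes alone as the score. Without c-FosDCh replicate 1 the erythroid and granulocyte medians were -0.36 and 0.46. Both lists make up the marrow score, and they differed between the groups by different amounts: the erythroid score differed by -2.43 (exact permutation p = 0.0571) and the granulocyte score by -1.81 (exact permutation p = 0.171). With the erythroid genes alone as the score, the excess of Trim58, Tmcc2 and Alas2 was -0.69, -0.64 and -0.35 and 257 genes were larger than predicted, while with the granulocyte genes alone there were 810. Klf11 had -1.04 and -1.07 under these 2 scores and Cyp26b1 1.48 and 1.76.

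Of 28 interferon response genes 5 were called lower and 0 higher, with medians of -1.08 observed, -0.88 predicted and -0.27 in excess (-0.18 without c-FosDCh replicate 2 and -0.16 with the erythroid score). Rsad2 (viperin) was at 146, 121 and 135 CPM in c-FosWT and at 38.0, 51.7, 21.7 and 7.55 CPM in c-FosDCh libraries, and fell by 2.17 (SE 0.55, adjusted p = 0.0366) with an excess of -0.91 ± 0.25. The contralateral values of 24.6 to 77.2 CPM lay below all c-FosWT DMM values. With the erythroid genes alone as the score the excess of Rsad2 was -0.38.

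The genes opposite to the prediction are named by the 8 smallest unadjusted p-values for the excess in each direction. Among the 8 that were higher in c-FosDCh were several genes of extracellular proteins. Their prediction is negative because, within groups, they went up with the marrow score. Pappa2 (chr1:158711727-158980490, minus strand), a protease that frees insulin-like growth factors, was at 1.46, 1.95 and 1.56 CPM in c-FosWT and at 3.36, 5.75, 4.25 and 1.51 CPM in c-FosDCh libraries. Replicate 4, the one with the lowest marrow score, was level with c-FosWT and the other 3 were above it. The difference of 1.17 ± 0.48 was not called (adjusted p = 0.102), but against a prediction of -1.09 the excess was 2.14 ± 0.40 (unadjusted p = 0.000227). Emilin3 (chr2:160906437-160912328, minus strand), an extracellular glycoprotein, was at 7.38, 5.15 and 10.1 CPM against 19.3, 19.4, 10.1 and 10.7 CPM, with an excess of 1.53 ± 0.29. Gldn (gliomedin, chr9:54286486-54341786, plus strand) was at 1.46, 1.03 and 1.06 CPM against 2.26, 6.57, 2.06 and 1.59 CPM, with an excess of 2.12 ± 0.45. Aebp1, a secreted collagen-binding protein, had an excess of 1.03 ± 0.29 and was the only opposite gene that DESeq2 called beyond the marrow score (adjusted p = 0.0485). DESeq2 gave 14759 of the 18125 tested genes no adjusted p there. Il34, a ligand of the macrophage receptor Csf1r, was at 11.5, 11.6, 10.9 and 5.16 CPM in c-FosDCh and at 5.90 to 7.95 CPM in c-FosWT libraries, with an excess of 1.04 ± 0.31. Prss50 and Galnt9 overlapped between the groups (excess 1.06 ± 0.28 and 1.82 ± 0.51). The ribosomal RNA copy n-R5-8s1 was one of the 3 called opposite genes (2.96 ± 0.82, adjusted p = 0.0418), but reads of such copies cannot be assigned to one place and its counts are uncertain.

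Of the 8 opposite genes named on the lower side, 6 are known from skeletal muscle. Ky, Smtnl2, Rtn2, Tmod4, Jph1 and Pdlim3 were at 22.4 to 52.2 CPM in c-FosWT replicate 1 and at 0.803 to 19.3 CPM in the other 6 DMM libraries, with an excess from -1.71 to -3.26 and an unadjusted p from 0.0721 to 0.109. Without the 2 libraries highest in muscle genes, c-FosWT DMM replicate 1 and contralateral replicate 2, the excess of Rtn2, Tmod4, Jph1 and Pdlim3 was 0.22, 0.36, 0.22 and 0.55, while that of Ky and Smtnl2 stayed negative at -0.67 and -0.25. The kinase gene Camk2a was also highest in these 2 libraries, at 40.3 and 26.3 CPM against 3.32 to 6.43 CPM in the other 6 DMM libraries, and its excess without them was -0.62. Spon2, a secreted matrix protein, was at 18.1, 10.1 and 4.00 CPM against 2.92, 2.44, 4.88 and 15.8 CPM, with overlapping groups. Of the 25 muscle markers, 13 were opposite to the prediction and 0 were called. Their median excess of -2.61 turned to 0.26 without c-FosWT DMM replicate 1 and to 1.22 without both muscle-rich libraries. Those libraries are all c-FosWT. Without c-FosDCh replicate 2, the c-FosDCh library highest in muscle genes, the median excess was -6.63. The slow fibre genes Myh7, Tnnc1 and Tnnt1 ran the other way, since c-FosDCh replicate 2 held 197, 32.5 and 21.7 CPM against at most 2.85 CPM in each other DMM library.

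Markers of other tissues gave these values. Of 15 osteoclast markers 5 were called lower and 1 higher, with a median excess of -0.27 (-0.13 and -0.17 without contralateral replicates 3 and 4). Oscar, a receptor of osteoclasts, was at 11.8, 9.33 and 8.4 CPM in c-FosWT and at 4.45, 6.97, 3.07 and 3.65 CPM in c-FosDCh libraries (excess -0.85 ± 0.35). Tnfrsf11b (osteoprotegerin), a decoy receptor that blocks osteoclast formation and is also made by chondrocytes, was at 94.2, 22.6 and 74.5 CPM against 237, 234, 577 and 951 CPM and rose by 2.97 ± 0.66 with an excess of 1.42 ± 0.54. Of 16 macrophage markers the 1 called was Cd14, at 8.82 to 14.5 CPM against 28 to 133 CPM, while 13 had lower values in c-FosDCh. For fibrous matrix genes 10 of 34 were called higher and 0 lower; Fn1 (fibronectin) and Dcn (decorin) rose by 1.74 ± 0.38 and 2.17 ± 0.48, whereas Col1a1 and Col1a2, the type I collagen genes chosen after their values were seen, differed by -0.34 and -0.35 and were not called. Thbs1 (thrombospondin 1) had an observed difference of -0.25 ± 0.35 against a prediction of 0.79, an excess of -1.15 ± 0.29. Tendon and ligament genes had a median excess of 0.83 over 12 genes, with Mkx, a tendon transcription factor, at 5.45 to 8.43 CPM against 12.7 to 19.1 CPM. Cell cycle genes had a median difference of -1.55 beside a median prediction of -1.78, and 0 of 30 were called.

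The remaining lists are given by their counts, beside 10.6% of all tested genes called higher and 3.79% called lower. Of 16 genes of the insulin-like growth factor axis 3 were called higher and 0 lower, of 24 integrin and mechanosensing genes 9 and 0, and of 21 genes of the ATF4 and amino acid response 2 and 0, with median excess values of 0.15 (0.08 without c-FosWT DMM replicate 2), 0.29 (0.16 without c-FosDCh replicate 2) and -0.12. The last turned to 0.21 and 0.31 with the c-FosWT and the contralateral slope. Igfbp7, which binds these growth factors, rose by 1.08 ± 0.19 with an excess of 0.89 ± 0.22, and the integrin gene Itga5 by 1.36 ± 0.27 with an excess of 0.63 ± 0.16. B cell markers (0 of 17), T and NK cell markers (1 of 18, lower), marrow stroma and adipocyte markers (1 of 16, higher) and megakaryocyte markers (0 of 11) had median differences of -1.56, -1.48, -1.21 and -1.74 and median predictions of -1.69, -1.73, -1.72 and -3.15. Osteoblast and osteocyte markers (2 of 18, higher), synovial and connective tissue fibroblast markers (2 of 18, higher) and smooth muscle and pericyte markers (1 of 12, higher) had median excess values of 0.32, 0.39 and -0.30. With the c-FosWT and the contralateral slope the first was -0.61 and -0.55 and the second 0.08 and 0.09, and without c-FosWT DMM replicate 1 the third was 0.07. Of 12 Schwann cell and nerve markers 3 were called higher and 1 lower, among them S100b, which chondrocytes also express, with an excess of 1.28. Of 16 endothelial markers 1 was called higher, Erg, and 1 lower. The part of these cell types in the results above was not tested.

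**Figure D5:**
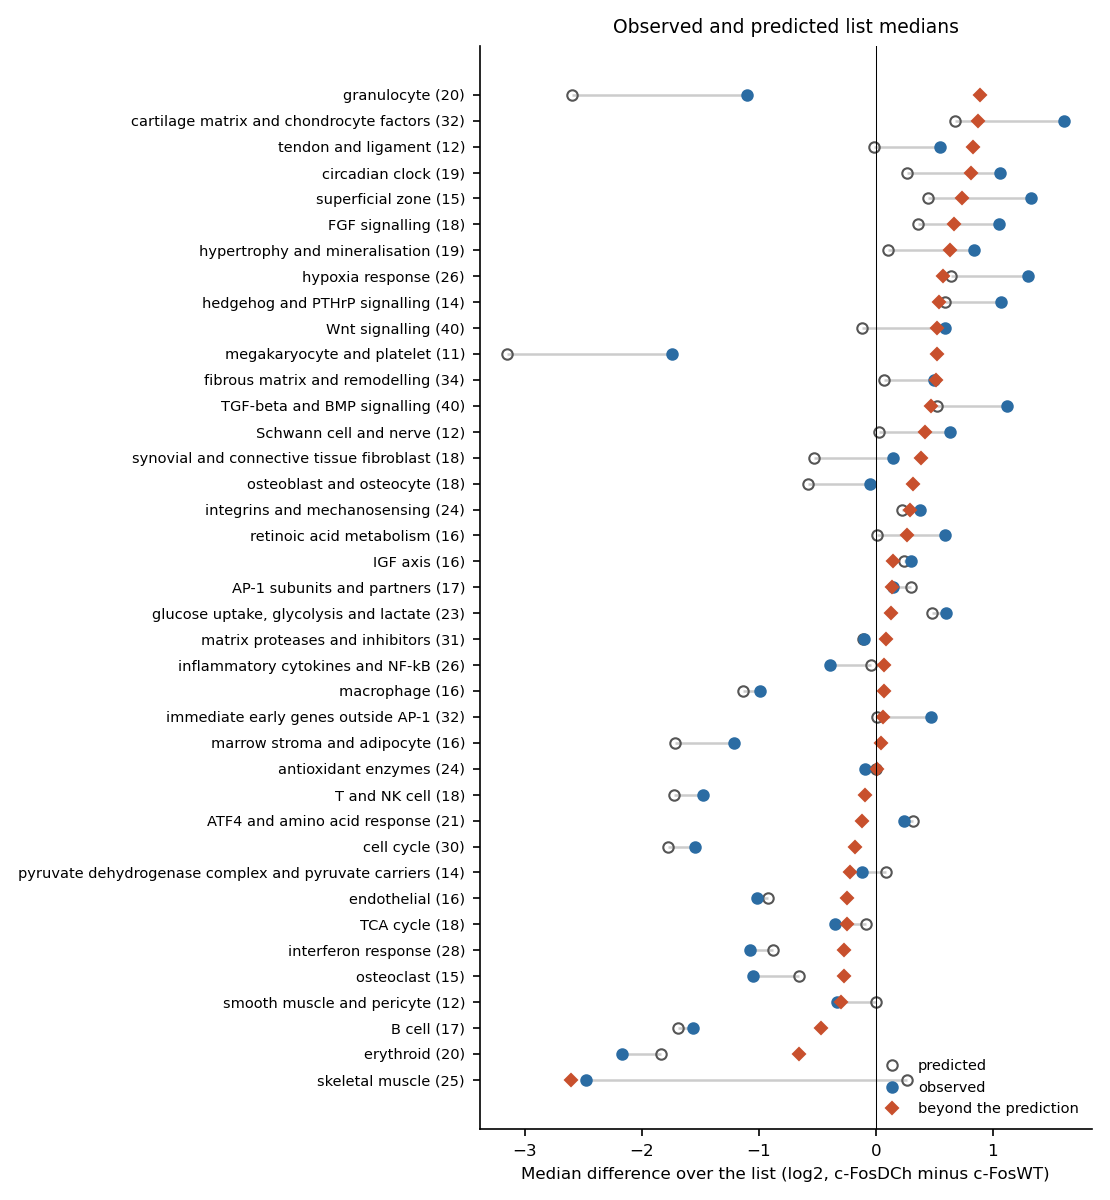
Median log2 difference between c-FosDCh DMM and c-FosWT DMM libraries over each of 39 gene lists, with the number of tested genes in brackets: observed (filled circles), predicted from the marrow score (open circles) and beyond the prediction (diamonds). Cartilage, superficial zone and clock lists lie at excess medians of 0.87, 0.74 and 0.81, erythroid and granulocyte lists at -0.66 and 0.89, and the skeletal muscle list at -2.61 (0.26 without c-FosWT DMM replicate 1 and -6.63 without c-FosDCh replicate 2).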

How the data were processed

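Poly(A) RNA of knee cartilage was sequenced in 11 libraries. The authors deposited raw counts of reads per gene, and the submitters' processing notes name bcl2fastq 2.19.1.403, STAR 2.6.1a, RSEM, DESeq2 1.22.2 and GRCm38. The sources used here state neither the annotation release nor the strand of each column. The first count column was used without its 4 read class rows, which held 56.84 to 66.92% of reads, and 55240 of 55421 genes were matched to GENCODE M21 for symbols and coordinates. Gene counts were 13593454 to 18280558 per library.

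Tests used edgeR 4.0.16 (R 4.3.3; TMM, filterByExpr, robust quasi-likelihood, all 11 libraries, Benjamini-Hochberg over 18125 genes), first with group and then with group and marrow score. P-values measure the spread pooled over the groups of all 11 libraries, not that of the DMM libraries alone. Both knees of a c-FosWT animal entered as independent, and an animal block was tried only as an alternative. With only the 7 DMM libraries 0 genes were called by the edgeR test (lowest adjusted p = 0.0846). Replicates differed by more than sampling noise (chi-square per degree of freedom at least 31.03), and scripts were tested on simulated data. Numbers shared by the labels did not pair the DMM libraries, which come from different animals. Alternatives were DESeq2 1.42.0, limma-voom 3.58.1, other scalings, filters, scores, slopes, blocks and covariates, and libraries left out.

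The members and the 39 lists were chosen with earlier results of these data known. Named genes are 17 fixed ones and, in each direction, 10 larger than predicted and 8 opposite (mean of at least 1 log2 CPM). These had the smallest unadjusted p for the excess, and the 10 were taken only where the groups did not overlap. Up to 3 members of each list were added by the same p. Some genes that this rule names are not reported here. Chosen after values were seen were Matn3, Matn1, Col9a1, Sox5, Comp, Chad, Cilp, Cytl1, Clu, Per1, Per3, Tef, Nr1d2, Arntl, Rarg, Aldh1a2, Crabp2, Stra6, Fgf2, Fgfr1, Spry4, Gdf5, Gdf6, Gdf10, Bmp2, Fzd9, Sost, Dkk1, Timp3, Serpina3n, P4ha2, Ddit4, Ankrd37, Plat, Col1a1, Col1a2, Chst1, Tsc22d3 and Sgk1.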

Additional observations from a re-analysis of the deposited data

Results flagged for a closer look

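Each of 165 genes and scores followed by name was looked at for a c-FosDCh DMM library far from the other 3, measured as its gap to the nearest one divided by the range of the group. The gap passed Dixon's 95% limit for groups of 4 for 5 genes, and chance alone would flag about 1 in 20. Replicate 4, the library with the lowest marrow score, stood apart in 4 of them. It was highest for Nr1d2 (0.906), a clock repressor, for Fosl2 (0.896) and for Jun (0.836), and lowest for Il34 (0.924). Replicate 1 was highest for Nfatc2 (0.94), where the other 3 libraries lay between 95.2 and 96.8 CPM.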

How the results depend on the processing

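Of 160 genes followed by name, 153 kept the direction of their difference and 137 that of their excess in each alternative. The 2616 called genes became 5358 with DESeq2, 1443 with any gene counted, and 0 with the 7 DMM libraries alone, with the muscle or the cartilage score as a covariate, without c-FosDCh replicates 3 and 4, or without the 2 libraries highest in muscle genes (the last 2 added after seeing the data, as was the muscle score beside the marrow score). Leaving out single libraries gave 0 to 4626. Beyond the marrow score DESeq2 called 77, with no adjusted p for 14759 genes. Genes larger than predicted numbered 0 with the 7 DMM libraries, without c-FosDCh replicates 3 and 4 and without the muscle-rich libraries, 257 with the erythroid and 810 with the granulocyte score, 1204 with limits of 0.58 and 0.25, and 0 to 875 without single libraries. Opposite genes numbered 3684 with any gene counted, 143 at a mean of 1 CPM, 762 and 748 with the c-FosWT and contralateral slopes, 591 with the looser limits, 440 without c-FosDCh replicates 3 and 4, and 150 to 360 without single libraries. Causes were not tested, beyond fewer samples or genes where these were removed.

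With the label number as a replicate block 1681 genes were called (63.7% higher) and 417 were opposite. Deviations of log2 CPM from the group mean correlated at -0.46, -0.1, -0.3 and -0.11 between same-numbered c-FosDCh and c-FosWT DMM libraries.

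Directions turned as follows. The excess of Mmp13 was -0.03 with DESeq2, -0.09 with limma-voom, -0.1 with animal as a random block, -0.04 with library totals, -0.02 with RLE, -0.01 with any gene counted, -0.02 with the DMM libraries alone, -0.33 with the block, -0.23 with the granulocyte score, -0.24 with the c-FosWT slope, -0.04 without c-FosDCh replicates 3 and 4, and from -0.8 to 0.41 without single libraries. With limma-voom and with the animal block the difference of Galnt9 was -0.01 (-0.2 without c-FosDCh replicate 2) and that of Jph1 0.01. With library totals the differences of Fosl2 and Adamts5 were -0.05 and -0.17. With the block the excess of Jun, Mmp3 and Ldha was -0.09, -0.47 and -0.04. Without c-FosWT DMM replicate 1 the differences of Jph1, Tmod4 and Pdlim3 were 1.03, 0.25 and 0.45, and the excess of Pdlim3, Matn3, Matn1 and Col9a1 was 0.05, 0.3, 0.47 and 0.27. Without replicate 2 of that group the excess of Ldha and Col2a1 was -0.09 and -0.18, and without replicate 3 the difference of Adamts5 was -0.11. Without c-FosDCh replicate 1 the excess of Ldha and Fos was -0.02 and -0.14. Without its replicate 4 the differences of Fosl2 and Adamts5 were -0.03 and -0.09 and the excess of Fos -0.03, and without replicates 3 and 4 these were -0.05, -0.2 and -0.02. With the cartilage score the differences of Adamts5 and Col2a1 were -0.04 and -0.39, and with the muscle score that of Jph1 was 0.43. With the erythroid score the excess of Fos, Jund, Ldha and Mki67 was -0.23, -0.02, -0.13 and 0.29. With the c-FosWT and the contralateral slope it was 1.5 and 3.49 for Matn3, 1.77 and 2.89 for Col9a1, 0.17 and 0.28 for Mki67, -0.07 and -0.03 for Fosl1, 0.16 and 0.18 for Fosl2, 0.18 and 0.26 for Slc7a5, 0.18 and 0.35 for Car2, -0.97 and -1.61 for Sost, -0.64 and -0.87 for Dkk1, and 0.05 for Spon2 with the contralateral slope. Without the muscle-rich libraries the differences of Jph1, Tmod4 and Pdlim3 were 1.03, 0.25 and 0.45, and the excess of Pdlim3, Tmod4, Jph1, Rtn2, Matn1 and Pdk4 was 0.55, 0.36, 0.22, 0.22, 0.22 and 0.07. Over all single libraries left out, the differences ranged from -0.03 to 0.21 for Fosl2, -0.11 to 0.1 for Adamts5, -0.2 to 0.86 for Galnt9, -2.85 to 0.25 for Tmod4, -1.12 to 1.03 for Jph1 and -2.74 to 0.45 for Pdlim3. The excess ranged from -0.14 to 0.52 for Fos, -0.18 to 0.51 for Col2a1, -0.09 to 0.31 for Ldha, -4.84 to 0.05 for Pdlim3, -3.86 to 0.3 for Matn3, -3.78 to 0.47 for Matn1 and -1.6 to 0.27 for Col9a1.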

Other observations

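Among the genes that DESeq2 called beyond the marrow score, the lowest adjusted p (0.0015) was that of Chst1, a sulfotransferase of keratan sulfate, a glycosaminoglycan of cartilage. Chst1, chosen after its values were seen, was at 36.5, 13.3 and 32.7 CPM in c-FosWT and at 137, 121, 270 and 282 CPM in c-FosDCh DMM libraries, and its excess in edgeR was 2.02 ± 0.41. The glucocorticoid-induced genes Tsc22d3 and Sgk1, likewise chosen, were also called by DESeq2 (adjusted p = 0.0366 and 0.0327). Tsc22d3 was at 86.1, 73.9 and 111 CPM against 210, 201, 493 and 235 CPM, and Sgk1 at 77.2, 44.1 and 71.7 CPM against 150, 142, 332 and 251 CPM. All c-FosDCh values of these 3 genes lay above all c-FosWT DMM values, which held for 17.2% of all tested genes.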
